A study of Mus musculus with 1152 samples.

Results

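ZBP1 is a sensor of left-handed double-stranded nucleic acids, and the gene belongs to the interferon-stimulated set. Together with RIPK1, RIPK3, MLKL, caspase-8, gasdermin D and the death receptor FAS, it makes up the core of 3 connected routes of regulated cell death. In necroptosis RIPK3 phosphorylates the pore-forming pseudokinase MLKL, in extrinsic apoptosis caspase-8 is activated below FAS or the TNF receptors and restrains RIPK1 and RIPK3, and in pyroptosis a caspase cleaves gasdermin D so that its amino-terminal part opens pores in the plasma membrane. All 7 genes (Zbp1, Ripk1, Ripk3, Mlkl, Casp8, Gsdmd and Fas) were chosen by name, and all 7 were present among the 23168 genes of the table. Transcript level does not report on activity here, since these proteins are controlled by binding, phosphorylation and cleavage.

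The measurements were made in single lymphatic endothelial cells (LECs) of the nasopharyngeal lymphatic plexus (NPLP), the network that carries cerebrospinal fluid towards the deep cervical lymph nodes. The cells came from pooled nasopharyngeal mucosa of aged C57BL/6 mice of both sexes with no allele or treatment named, and had been sorted as CD31+ PDPN+ cells into plates and sequenced with Smart-seq3, a full-length plate method. There was 1 group and the animal of each cell was not given, so the pool was 1 sample without replicates, adult mice were not analysed here, and no p-value is given for any comparison. Of the labelled cells 56.9% were analysed here, with 7046 to 10727631 reads (median 148202.5) and 2006 to 7679 detected genes (median 3940.5) per cell. The 8 listed LEC genes, including Prox1, Flt4 and Pdpn, had a median share of 97% of cells, the lowest being Ccl21a at 87.7%. Pdpn and Pecam1, which encodes CD31, are among the 8 and were markers of the sort, and EpCAM was stained for as well. The 9 listed haematopoietic genes had a median share of 1.22%, Epcam was at 0, and Ptprc, which marks leukocytes, had a read in 6 cells. At least 1 read of any haematopoietic gene, mostly Cd68 or Fcer1g, was found in 29.6% of cells. The 6 blood endothelial genes had a median share of 2.21%, with Cd34 at 35.5%. Of the fibroblast markers, Dcn had a read in 30.03% of cells and the other 4 in 1.68% to 2.44%.

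Levels are the natural log of 1 plus reads per 10000. Because depth differed widely between cells, shares of cells with a read are also given after thinning to 20000 reads, for which 88 shallower cells were left out. Shares carry exact (Clopper-Pearson) 95% intervals, which cover counting error between cells of 1 pool only, and reads rather than molecules were counted, so 1 transcript can give several reads.

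Gsdmd was the most widely detected member. It lies on the plus strand at chr15:75862327-75867408 (GRCm38) and encodes the pore-forming gasdermin D. A read was found in 45.6% of cells (interval 41.7% to 49.5%), and in 33.1% of the thinned cells. In cells with a read, its level ran up to 3.03 with a median of 0.86. Casp8 (chr1:58795374-58847503, plus strand), the initiator caspase shared by the apoptotic and necroptotic routes, followed with 41.9% of cells (38.1% to 45.8%), 28.7% after thinning. Its level in cells with a read had a median of 0.60 and reached 2.93.

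Zbp1 lies on the minus strand at chr2:173206612-173218923. It had a read in 37.3% of cells (33.6% to 41.2%), and in 26.1% of the thinned cells (22.5% to 29.9%), and was at 0 in the rest. Where it was detected the level reached 2.92 with a median of 0.68, the second highest median of the 7. As Zbp1 is widely expressed in leukocytes, the share was recomputed without the cells with any haematopoietic read. It was 37% of the other cells, and 2 Zbp1-positive cells had a Ptprc read. The other members kept within their intervals too, except Ripk1, which was found in 34% of those cells. All 7 shares were lower than in all cells. They were taken without thinning, so depth was not held fixed in this comparison.

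The 3 components of the necrosome, the complex that executes necroptosis, were unequally detected. Ripk1 (chr13:34002363-34037147, plus strand), the scaffold kinase of the TNF receptor complex, had a read in 38.3% of cells (34.5% to 42.1%), 23.4% after thinning, with a median level of 0.47 in those cells. Ripk3 (chr14:55784995-55788865, minus strand), the kinase that activates MLKL, had a read in 19.4% of cells (16.4% to 22.6%), 13% after thinning. Mlkl (chr8:111311797-111338177, minus strand), the membrane-disrupting effector, lay between them with 26.5% of cells (23.2% to 30.1%), 17.3% after thinning, and a median level of 0.46 where detected. The highest level was 2.65 for Ripk3 and 1.94 for Mlkl. Ripk1 shares 2.89% of its exonic bases with Serpinb6a on the opposite strand. How the counting used strand is not stated. Serpinb6a was found in 90.5% of cells, and the Spearman rho of its level with that of Ripk1 across thinned cells was −0.02. Whether Serpinb6a reads from the shared bases were counted for Ripk1 was not tested. A further 6.12% of the exonic bases of Ripk1 lies in the annotated pseudogene Gm17084 on the same strand. Overlap with other annotated genes touched no exonic base of Casp8, Mlkl or Fas.

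Fas (chr19:34290666-34327772, plus strand), the receptor for FAS ligand, was the least detected member. It had a read in 50 cells, 7.62% (5.71% to 9.93%), and in 4.75% of the thinned cells, and 21 of the 50 cells (42%) rested on 1 to 3 reads. For the other 6 members between 28.1% and 36.2% of positive cells rested on so few reads.

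**Figure D1:**
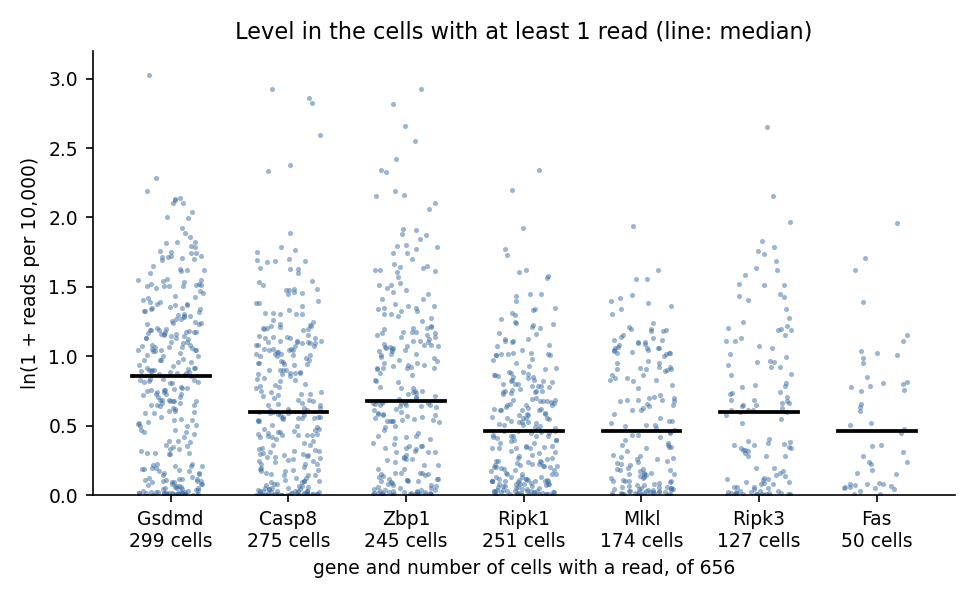
Level of each member, as the natural log of 1 plus reads per 10000, in every cell with at least 1 read (1 point per cell, line at the median). Points run continuously from near 0 to about 3 for Gsdmd, Casp8 and Zbp1, the highest median is that of Gsdmd (0.86), and Fas has 50 points.

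Each member was at 0 in over 50% of cells, so its median level over all cells was 0. In order of thinned shares the members ran Gsdmd, Casp8, Zbp1, Ripk1, Mlkl, Ripk3 and Fas. Each pair of neighbours had overlapping intervals except Ripk3 and Fas. Before thinning Mlkl was also separate from Ripk3, and Zbp1 from Mlkl. The order of Zbp1 and Ripk1 depended on depth, since Ripk1 was detected in slightly more cells before thinning and in fewer after it. The median share of the 7 members, 37.3% of cells and 23.4% after thinning, can be set beside 5.03% and 2.29% for the median of all 23168 genes. For the 20981 genes with a read in any cell the medians were 7.62% and 3.70%, the first equal to the share of Fas. To set genes of different length side by side, mean levels were divided by the exonic bases of all annotated transcripts of a gene. Which of these transcripts the cells expressed was not tested. Per kilobase of exon, the mean level over all cells was 0.350 reads per 10000 for Gsdmd, 0.211 for Casp8, 0.193 for Zbp1, 0.111 for Ripk3, 0.109 for Mlkl, 0.0432 for Ripk1 and 0.0363 for Fas. Ripk1, whose annotated transcripts together cover 8344 exonic bases, had rank 3 by share of all cells and rank 6 by this measure.

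**Figure D2:**
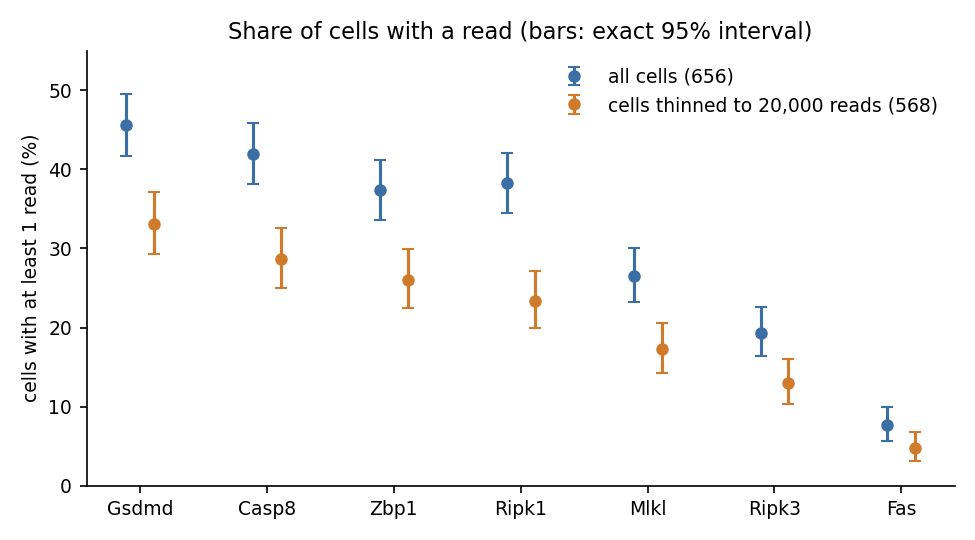
Share of cells with at least 1 read of each member, in all cells and in the cells thinned to 20000 reads, with exact 95% intervals. Every member was lower after thinning, when Fas (4.75%) is the only one whose interval stands clear of its neighbour.

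The genes around these members were described by lists of known function. Among nucleic acid sensors and their adaptors, 10 of 11 listed genes were in the table, with a median share of 35.6% of cells. Tmem173, which encodes STING, was the most frequent (77%), followed by Ddx58 (RIG-I, 52.4%). Adar, whose product edits double-stranded RNA and restrains ZBP1, was found in 34.9% of cells. Tlr3 and its adaptor Ticam1, whose product like ZBP1 binds RIPK3, were found in 24.7% and 7.01%.

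Upstream of RIPK1, a TNF receptor was found in most cells while no read of Tnf was. Tnfrsf1a, the main TNF receptor, had a read in 81.2% of cells and Tnfrsf10b, the mouse TRAIL receptor, in 43.1%, whereas Tnfrsf1b, Tnfrsf21 and Tnfrsf25 had reads in 18.4%, 4.42% and 3.66%. Tnf had no read in any cell, which by the limit of 3 cells allows a share of cells with a read of up to 0.457% (0.561% by the exact interval) and sets no limit on cells with the transcript. Tnfsf10, which encodes TRAIL and is itself induced by interferon, was found in 32.8% of cells and Lta in 1.68%. In the RIPK1 complexes all 20 listed regulators were detected, with a median share of 28.8%. They ran from Otulin (11.4%) to Rbck1 (80.8%), a subunit of the linear ubiquitin ligase. Cflar, which encodes the caspase-8 inhibitor cFLIP, had a read in 68.9% of cells and Xiap in 69.2%, above the share of every member. Per kilobase of exon their means were 0.0753 and 0.102 reads per 10000, above Ripk1 and Fas and below the other members. Fadd, the adaptor that joins FAS to caspase-8, had a read in 13.9% and Tnfaip3 (A20) in 16.2%.

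Around Gsdmd the genes of the inflammasome were unevenly detected. Of 14 listed inflammasome and pyroptosis genes 9 were in the table, and Nlrp3, Nlrp1b, Mefv, Gsdmc and Il1a were not and have no value here. The 9 had a median share of 2.29%, beside 5.03% for all genes. Casp1, the main activating caspase of the canonical route, had a read in 15 cells (2.29%), Il18 in 6 and Il1b in 3, and Nlrc4 and Aim2 were at 0 in all cells. By contrast Casp4 (46.3%), which cleaves gasdermin D in the non-canonical route, Pycard, the adaptor of the canonical route (45.9%), and Ninj1 (74.8%), whose product ruptures the membrane after pore formation, were as frequent as Gsdmd or more so. Per kilobase of exon the means were 0.186 reads per 10000 for Casp4, 0.160 for Pycard and 1.46 for Ninj1, beside 0.350 for Gsdmd. The 7 listed genes of membrane repair by the ESCRT-III complex, which removes MLKL and gasdermin D pores, were found in 41% (Vps4a) to 84.6% (Chmp2a) of cells.

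How many members were detected together in 1 cell depended on depth. No member was found in 20.2% of thinned cells, 1 in 36.3%, 2 in 26.2%, 3 in 12.1%, 4 in 4.40% and 5 in 0.704%, and no thinned cell had 6 or 7. Before thinning the shares were 9.91% with none, 24.8% with 1, 27% with 2, 21.5% with 3, 11.1% with 4, 5.03% with 5 and 0.610% (4 cells) with 6, and the median cell had 2 members in place of 1. The complete chain of Zbp1, Ripk3 and Mlkl, the ZBP1-driven route to necroptosis, was found in 4 thinned cells (0.704%) and in 17 of all cells (2.59%). Ripk3 had a read in 12.2% of thinned cells with Zbp1 and in 13.3% of those without. Over the 21 pairs of members the Spearman rho across thinned cells ran from −0.03 to 0.16, with a median of 0.01. The medians of the members with all genes detected in at least 10% of thinned cells were 0.0088 to 0.02. Of the 21 pairs 20 lay within 0.1 of 0, beside 21 with another draw of reads, 18 at 50000 reads and 19 without thinning. The same count was not made for pairs of other genes, so whether it is unusual was not tested. Detection at this depth misses transcripts, so an absent read is not an absent transcript.

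The pair furthest from 0 was Zbp1 and Mlkl. Mlkl had a read in 25.7% of thinned cells with Zbp1 (38 cells, interval 18.9% to 33.5%) and in 14.3% of those without (60 cells, 11.1% to 18%). The 2 intervals did not overlap, which held with the higher share in Zbp1-positive cells for 2.68% of the genes detected in at least 10% of thinned cells. With another random draw of the reads the shares were 21.3% and 15.8%, without thinning they were 32.2% and 23.1%, and after thinning to 50000 reads 25.4% and 17.3%. The share was higher in Zbp1-positive cells each time, but the intervals overlapped in these alternatives and when cells with a haematopoietic read were left out (23.5% and 14.5%). With another draw and at 50000 reads the pair with the highest rho was Zbp1 and Casp8. Casp8 had a read in 33.8% of thinned cells with Zbp1 and in 26.9% of those without, with overlapping intervals, and without thinning in 50.6% and 36.7%, a wider gap than that of Mlkl.

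Zbp1 varied together with the interferon response. Its Spearman rho was above 0 with each of the 29 interferon-stimulated genes in the table, from 0.07 (Mx2) to 0.34 (Ifit1), with a median of 0.24, beside a median of 0.02 over the 7769 genes detected in at least 10% of thinned cells, of which 68.1% were above 0. The other members were Mlkl with a median of 0.11 (28 of 29 above 0), Casp8 with 0.06 (25 of 29), Gsdmd with 0.02 (21), Ripk1 with 0.02 (19), Ripk3 with 0.01 (17) and Fas with −0.0019 (14). Over all those genes the medians of these 6 members were 0.0088 to 0.01, and the genes above 0 made up 58.9% for Mlkl, 62.6% for Casp8, 63.6% for Gsdmd, 60.4% for Ripk1, 61.5% for Ripk3 and 58.2% for Fas. These correlations run across cells of 1 pool that share libraries and depth structure, and describe these cells only. The rho of Zbp1 with the number of detected genes was 0.22, and after regressing that number its median with the interferon genes was 0.22. It stayed between 0.21 and 0.24 under all 8 alternatives computed, which included removal of the mean of each cluster or of each block of 96 cell numbers.

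**Figure D3:**
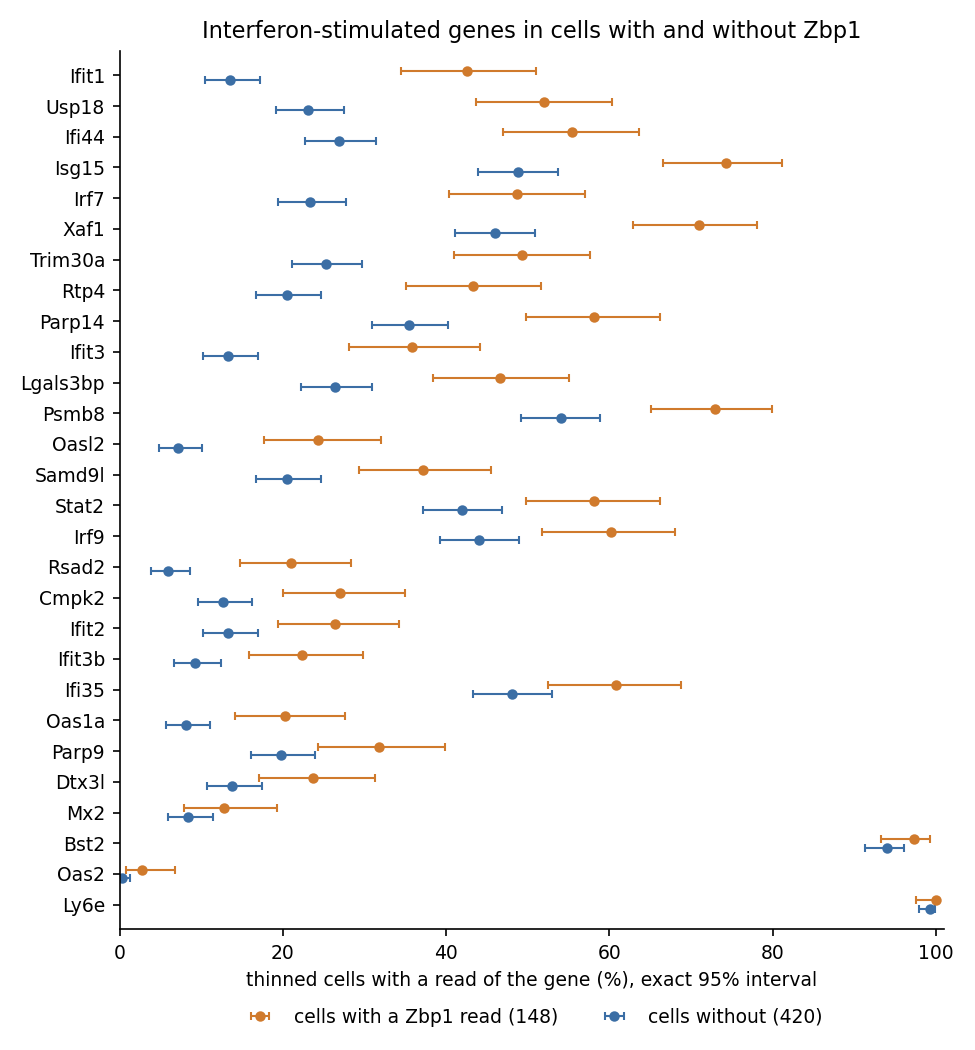
Share of thinned cells with a read of 28 of the 29 interferon-stimulated genes, in the cells with a Zbp1 read and in those without, with exact 95% intervals. Every gene shown is higher in Zbp1-positive cells, with Ifit1 at the top (42.6% and 13.6%) and the near-ubiquitous Ly6e at the bottom.

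In the cells themselves, the difference was visible as a share of positive cells. Ifit1, which encodes an RNA-binding antiviral protein, had a read in 42.6% of Zbp1-positive cells (34.5% to 51%) and in 13.6% of the others (10.4% to 17.2%). Irf7, the transcription factor that amplifies the response, was found in 48.6% and 23.3%, and Isg15, a ubiquitin-like modifier, in 74.3% and 48.8%. All 29 genes were more frequent in Zbp1-positive cells, by a median of 16.7 percentage points, and 23 had separate intervals. Of all genes in at least 10% of thinned cells 74.5% were more frequent in Zbp1-positive cells, by a median of 2.61 points, and 2.68% had separate intervals with the higher share there. Zbp1-positive cells had a mean of 3058 detected genes after thinning and the others 2802. Of the 26 interferon genes in at least 10% of cells, 26 were more frequent and 22 had separate intervals. Oas2, Mx2, Dtx3l, Ifi35 and the near-ubiquitous Bst2 and Ly6e did not have separate intervals. For Mlkl, 27 of 29 genes were more frequent in positive cells, by a median of 9.39 points, and 7 had separate intervals: Irf7, Stat2, Isg15, Ifit1, Ifit3, Parp14 and Parp9. Over all genes 61.4% were more frequent in Mlkl-positive cells, by a median of 1.22 points, and 0.863% had separate intervals with the higher share there.

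Among all eligible genes, the 10 whose level was most like that of Zbp1 were Ifi27l2a (rho 0.36), Ifit1 (0.34), Bst2 (0.33), Ifi44 (0.32), Usp18 (0.31), Irf7 (0.29), Isg15 (0.29), Ifit3 (0.29), Rnf213 (0.28) and Gbp7 (0.28). Of these 7 were on the interferon list, and Ifi27l2a, Rnf213 and Gbp7, which are also known to respond to interferon, were not. Between 7 and 8 of the 10 were retained with another draw, at 50000 reads and without thinning. Among the sensors, Zbp1 was nearest to Ddx58 (0.22), Dhx58 (0.21) and Tlr3 (0.17), while Mavs (0.0001) and Tmem173 (−0.03) were near 0.

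Ripk1 had its highest correlations with another set of genes. With the 30 genes of the dissociation response, immediate-early and heat-shock genes that rise when tissue is digested, it had a median rho of 0.13, beside 0.01 over all genes, and was above 0 for 29 of 30, beside 60.4% of all genes. The 3 genes most like it in the table were Fosl2 (0.26), Sbno2 (0.26) and Hspa8 (0.25), the last of which is on that list. Nfkbia (0.22), Junb (0.21) and Hsp90aa1 (0.21) came next within the list. The sign alone did not set Ripk1 apart, since Fas was above 0 with 29 of the 30, Ripk3 with 28, Gsdmd with 26, Mlkl with 23, Casp8 with 21 and Zbp1 with 13. The medians of these 6 members ran from −0.0042 (Zbp1) to 0.05 (Gsdmd). For Ripk1 the median was 0.16 with another draw, 0.20 at 50000 reads, 0.19 without thinning, 0.13 with the block mean removed and 0.12 with the number of detected genes regressed. Whether these transcripts were present before the tissue was digested was not tested.

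**Figure D4:**
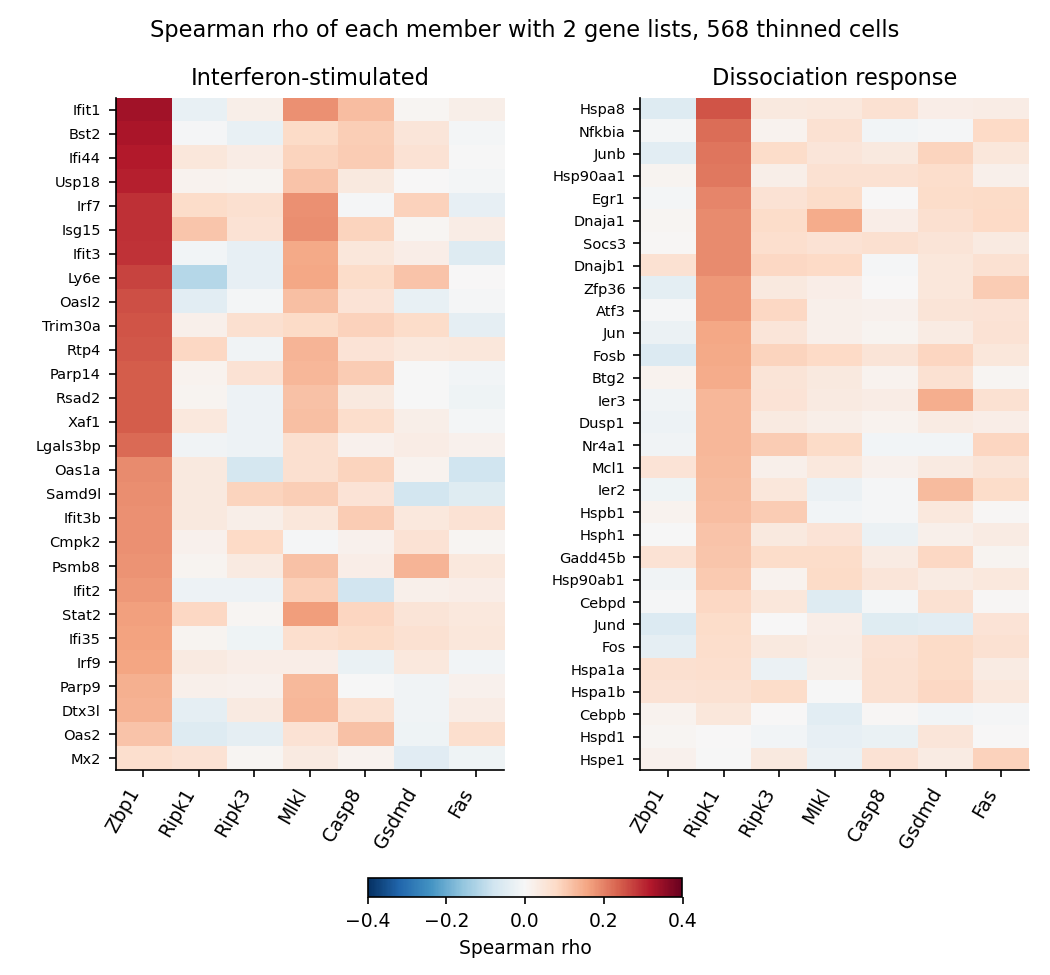
Spearman rho of each member with 28 of the 29 interferon-stimulated genes (left) and the 30 dissociation-response genes (right) over thinned cells, with red above and blue below 0. The Zbp1 column is red throughout on the left (median 0.24), Mlkl is paler (0.11), and on the right the Ripk1 column is the darkest (median 0.13).

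For the remaining members the nearest genes were Kat2b (rho 0.22), Isg15 (0.19) and Irf7 (0.18) for Mlkl, Exosc3 (0.21), Gsk3a (0.17) and Cox15 (0.15) for Ripk3, Robo4 (0.17), Srsf9 (0.17) and Pcdhb9 (0.17) for Casp8, Tut1 (0.17), Cxcl17 (0.17) and Ing5 (0.17) for Gsdmd, and Slc39a13 (0.17), Slain2 (0.16) and Camk2d (0.16) for Fas. For each of these 5 members 0 or 1 of the 3 was retained with another draw, at 50000 reads and without thinning. For Ripk1 it was 3 with another draw and 2 in the other settings, where Sbno2 was lost.

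The set of RefSeq (GRCm38.p6) promoter windows used here held none for Zbp1 or Gsdmd. For the other 5 members it held windows from 250 bases before to 50 bases after the start site, with 2 start sites for Ripk1. Each was searched on both strands for the core of the interferon-stimulated response element (ISRE), GAAANNGAAA, which is bound by interferon regulatory factors, and for the gamma-activated site (GAS), TTCNNNGAA, a motif of the response to interferon gamma. The first was present in 3.44% of 32851 promoter windows and the second in 8.30%. Of the 21 interferon genes with a window, 9 (42.9%) held the first and 5 (23.8%) the second. A gene was counted if any of its windows matched, so these shares and those of windows differ in unit. The 3 windows shown are that of Ripk1 with both motifs, that of Fas with a GAS, and that of Mlkl, the window-bearing member with the highest interferon rho. Capitals mark matches.

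Ripk1, chr13:34002624-34002923, plus strand: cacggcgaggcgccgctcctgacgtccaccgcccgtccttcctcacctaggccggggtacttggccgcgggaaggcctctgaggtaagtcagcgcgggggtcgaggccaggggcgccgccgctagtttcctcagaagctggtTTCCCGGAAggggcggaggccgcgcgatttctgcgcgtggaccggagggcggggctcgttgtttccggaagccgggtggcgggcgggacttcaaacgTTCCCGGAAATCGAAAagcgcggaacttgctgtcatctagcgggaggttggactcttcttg

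Fas, chr19:34290409-34290708, plus strand: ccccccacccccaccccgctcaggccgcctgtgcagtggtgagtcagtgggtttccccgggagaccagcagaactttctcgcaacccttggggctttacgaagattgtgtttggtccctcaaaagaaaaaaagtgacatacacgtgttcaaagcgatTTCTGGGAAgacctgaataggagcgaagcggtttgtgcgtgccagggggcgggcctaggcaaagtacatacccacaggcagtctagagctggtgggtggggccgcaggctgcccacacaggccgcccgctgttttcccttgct

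Mlkl, chr8:111338156-111338455, minus strand: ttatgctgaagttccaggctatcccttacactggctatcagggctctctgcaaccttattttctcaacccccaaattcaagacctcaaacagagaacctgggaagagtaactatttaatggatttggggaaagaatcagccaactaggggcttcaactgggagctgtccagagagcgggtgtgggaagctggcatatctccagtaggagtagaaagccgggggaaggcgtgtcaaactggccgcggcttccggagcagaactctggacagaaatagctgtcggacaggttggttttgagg

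The downstream Ripk1 window held the ISRE core GAAATCGAAA starting 5 bases before the start site, and TTCCCGGAA in a pair of places, one starting 11 bases before it and overlapping the ISRE core and the other further upstream. The other Ripk1 window, at the annotated 5′ end of the gene (chr13:34002113-34002412), held neither. Fas held TTCTGGGAA starting 93 bases before its start site, and the windows of Mlkl, Ripk3 and Casp8 held no match. In these cells Ripk1 and Fas had interferon medians of 0.02 and −0.0019 and Mlkl one of 0.11. A match is a run of letters and not a measured site.

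Cells had been numbered consecutively, and 96-well plates were used, so shares were compared over 12 blocks of 96 cell numbers. Whether a block was a plate is not stated. Over the 10 blocks of at least 35 thinned cells Zbp1 had the widest range of the 7 members in percentage points, from 17.3% (14 of 81 cells) in block 5 to 43.4% (23 of 53 cells) in block 7, with block 6 at 41.5%. Over all 12 blocks the medians were 32.3% for Gsdmd, 27.7% for Casp8, 25.6% for Zbp1, 23.6% for Ripk1, 18.7% for Mlkl, 13.1% for Ripk3 and 4.36% for Fas. For 6 of the 7 members the lowest share fell in block 8 or 9, which held 16 and 20 thinned cells. Ripk3 and Fas were at 0 in block 9.

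**Figure D5:**
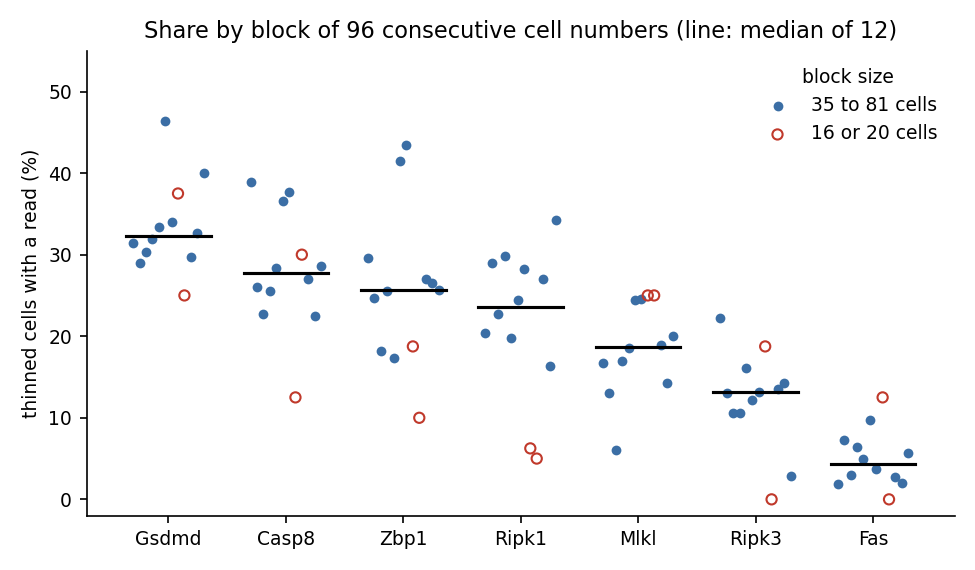
Share of thinned cells with a read of each member in the 12 blocks of 96 consecutive cell numbers (filled points, blocks of 35 to 81 cells; open points, blocks of 16 or 20 cells; line, median). For Zbp1, blocks 6 and 7 stand at 41.5% and 43.4% above a median of 25.6%.

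Clustering without the listed genes gave 5 clusters with 31.6%, 26.7%, 15.9%, 14.5% and 11.4% of cells. Cluster 1 was Ptx3+ capillary-like, with 5 of 5 markers raised (Ptx3, Stab2, Itih5, Mrc1 and Lyve1) and 1 precollecting marker (Fbln2). Cluster 5 was called upstream-valve-like, with 3 of 5 markers raised (Cldn11, Neo1 and Gata2). Cluster 5 also had 2 raised downstream-valve markers (Nos3, and Cldn11, which is on both valve lists) and 1 Ptx3- capillary marker (Stc1). Cluster 2 (led by Ahsg and Spp1) had 3 raised precollecting markers (Foxp2, Apoe and Bmp4) and 3 downstream-valve markers (Gja4, Clu and Nos3). This tie left it unnamed. Cluster 3 (led by Tppp3) had 2 raised Ptx3- capillary markers (Fndc1 and Reln) and 1 Ptx3+ capillary marker (Lyve1), too few for a name. Cluster 4 carried 3 raised Ptx3- capillary markers (Ptn, Anxa3 and Stc1), from a list drawn up with these data known. It also had 2 raised downstream-valve markers (Clu and Nos3), and is called here by its leading gene, Ptn. Zbp1 was found in 29.4%, 22.9%, 18.2%, 28.8% and 31.8% of the thinned cells of clusters 1 to 5, and the intervals of all clusters overlapped. Casp8 had the widest range, from 16.7% (8.62% to 27.9%) in cluster 5 to 34.5% (27.5% to 42%) in cluster 1. Gsdmd ran from 28.2% to 39.5%, Ripk1 from 15.9% to 28.8%, Mlkl from 13.4% to 26.2%, Ripk3 from 6.82% to 16.6% and Fas from 3.03% to 6.25%. For all 7 members, 0 of 70 pairs of clusters had separate intervals. Under 9 other settings of the clustering, which gave 5 to 7 clusters, between 1 and 10 pairs did. Casp8 was among them each time, Gsdmd in 6 settings, and Zbp1 and Ripk1 in 2 each. Settings with more clusters had more pairs to compare, so these counts do not all share a denominator. The same counts were not made for all genes. Whether 0 to 10 pairs, or the recurrence of Casp8, is unusual was therefore not tested.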

How the data were processed

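Cells from 1 pool were sequenced with Smart-seq3, of which 656 of the 1152 labelled were analysed here and 496 were not. At least 1 read was found in 299 of them for Gsdmd, 275 for Casp8, 251 for Ripk1, 245 for Zbp1, 174 for Mlkl, 127 for Ripk3 and 50 for Fas. Per the methods, the authors aligned reads to mm10 with STAR, counted them per gene with featureCounts, and kept cells with at least 2000 genes and at most 10% mitochondrial reads. The deposited values were read as natural logs of 1 plus reads per 10000. The methods name log2, but back-transformed with base e the sums per cell had a mean of 10000, and base 2 gave 2848.75 to 4937.53. Taking the smallest value above 0 in a cell as 1 read, 100% of values were whole reads within 0.01. No cells had identical values.

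Shares have exact intervals (scipy 1.17.1). Where no cell had a read, 3 cells were taken as the upper limit. Thinning left 568 cells, 148 of them with a Zbp1 read and 420 without, and dropped 88. The 2000 variable genes, less 29 listed ones, were clustered in Seurat 5.3.0 (R 4.3.3) on 15 principal components at the lowest resolution with 5 clusters, after regression of depth, mitochondrial share, dissociation and ribosomal scores. A class name needed at least 3 raised markers and more than any other class. No doublet caller was run, since cells were sorted singly. Positions are from GENCODE M21, which held 22258 of the 23168 symbols.

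The members and gene lists were chosen with earlier results of these data known. Genes named were the 7 members, genes of the lists, and, among genes in at least 10% of thinned cells, the 10 with the highest Spearman rho to Zbp1 and the 3 highest for each other member. Values of some listed genes are not reported here. With 1 pool no test between groups was made. Recovery, thinning, likeness and clustering were tested on simulated data. Alternatives covered the detection threshold, thinning, cell subsets, adjustments of the correlations and clustering settings. Those for member pairs, for Ripk1 with dissociation genes and for the likeness ranking were chosen after seeing the data.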

Additional observations from a re-analysis of the deposited data

How the results depend on the processing

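The share of cells with a read depended on depth and threshold. The median over the 7 members was 37.3% as reported, 23.4% after thinning to 20000 reads, 29.3% at 50000 reads, 20.4% when at least 5 reads were required, 6.55% for levels above 1, and 41.5% when the 25% of cells poorest in detected genes were dropped. It was 34% without cells with a haematopoietic read and 37.6% without the 4 cells that held reads of Xist and of a Y-linked gene. The median level (0.21) was 0.20 without the cells poorest in detected genes and 0.19 without cells with a haematopoietic read. The other alternatives changed its scale. It was 0.30 in log2 units, a ratio fixed in advance, and 0.31 as a linear mean logged after averaging. The rho of Zbp1 with interferon genes stayed within 1.5 times under 8 alternatives. The share of Zbp1-positive cells with Mlkl stayed inside its interval under 4 alternatives, although its difference from the other cells fell from 11.4 to 5.54 percentage points with another draw of reads. The range of Zbp1 over clusters, 13.6 percentage points, was 25.7 and 22.7 at resolutions 0.1 and 0.5 higher, 8.93 with 30 principal components and 21.4 with 3000 variable genes. The smallest cluster then held 37, 12, 69 and 29 thinned cells, and the cause was not tested. No paired analysis was possible because all cells belonged to 1 group. Depth limits absence: a member at 0 in a cell of 20000 reads may still be expressed, and with 1 pool no value speaks for variation between mice.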

Other observations

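Within the lists of death and survival genes, those whose level was furthest above 0 in rho with Ripk1 over the thinned cells were Pycard (0.16), Apaf1 (0.15), Tnfrsf1a (0.14), Tnfaip3 (0.13) and Tnfrsf10b (0.13). Ripk1 and Ripk3, which bind each other through a shared motif, were found together in 24 thinned cells. Ripk3 had a read in 18% of thinned cells with Ripk1 (interval 11.9% to 25.6%) and in 11.5% of those without (8.65% to 14.9%). Ripk1 had one in 32.4% of thinned cells with Ripk3 (22% to 44.3%) and in 22.1% of those without (18.5% to 26%). The intervals overlapped in both comparisons, and the rho of Ripk1 with Ripk3 was 0.07. Mlkl was nearest within the same lists to Adar (0.15), Eif2ak2 (0.13) and Cflar (0.12), of which the first 2 belong to the double-stranded RNA response. These genes were picked after their values had been seen, no test was run on them, and in sparse counts correlations of this size are descriptions of these cells.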
